A study of Mus musculus with 2 samples.

Results

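The Ugt and Sult genes encode the UDP-glucuronosyltransferases and the cytosolic sulfotransferases, the enzymes that conjugate drugs, hormones, bilirubin and bile acids in the liver. Members were all genes of the deposited feature lists whose symbol starts with Ugt or Sult and a digit, pseudogene symbols left out: 43 of 32286 features, 22 Ugt and 21 Sult. They comprise 9 Ugt1a, 3 Ugt2a, 7 Ugt2b, 2 Ugt3a and 1 Ugt8 gene, and 6 Sult1, 9 Sult2, 2 Sult3 and 4 Sult4 to Sult6 genes. They were chosen by name and not by any value.

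Perfused mouse liver cells were profiled in 2 droplet libraries (10x Chromium, 3' v3 chemistry), in which each molecule counted is a UMI. The DDC library pooled 2 WT mice on a normal diet at day 0 with 2 Sox9-EGFP mice on a DDC diet for 2 weeks, a diet that injures bile ducts and hepatocytes. For the DDC_cMet library, 2 WT mice on a normal diet at day 0 were pooled with 2 Sox9-CreERT2:Rosa26-mTmG mice that had DDC diet and cMet, given by HTVi, for 5 months; the series text names HCC cells among those studied. The strain label of both is C57BL/6J;129S6/SvEvTac, and ages are not given in the sources used here. The reporters depend on Sox9 activity: EGFP marks cells with an active Sox9 transgene, and the CreERT2 acts in Sox9-expressing cells. Each group is 1 library, and no label assigns a barcode to a mouse, so baseline and injured cells cannot be told apart and no test between groups was possible. All intervals are exact 95% intervals that cover counting error only.

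Conjugation makes small lipophilic molecules water-soluble. Glucuronosyltransferases sit in the endoplasmic reticulum and move glucuronic acid from UDP-glucuronate, which Ugdh makes. Sulfotransferases are cytosolic and move sulfate from the donor PAPS, which Papss1 and Papss2 make. Transporters of the Abcc family then export the conjugates to bile or blood. In mouse liver many of these genes are known to differ between the portal and central ends of the lobule and between the sexes.

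Totals were 104523363 UMIs over 8694 barcodes (DDC) and 186997180 UMIs over 18316 barcodes (DDC_cMet). A barcode entered the sets below if it had 500 or more genes, 2000 or more UMIs and no more than 30% of them mitochondrial, which left 2903 (33.4%) and 8099 (44.2%) cells at median depths of 29588 and 13215 UMIs. The cell type label is Hepatocytes. Cells with at least 50 Alb UMIs per 10,000, called Alb-high, numbered 2159 and 6297, and cells under 20, called Alb-low, 504 and 746. Alb-high is a range and not a cell type, and 114 and 286 cells lay between 40 and 60. Macrophage markers led in 429 and 1258 of the remaining cells. A Y-linked gene was counted in 1823 and 4323 of the Alb-high cells and Xist in 14 and 17. The libraries had 50 barcode sequences in common, 4 of them among the kept cells. EGFP was counted in 984 kept cells of the DDC library, and tdTomato in 2 cells of the other, too few to separate its mice. No doublet caller was used.

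Most members lie in gene clusters, given here with mm10 coordinates of the GENCODE annotation. The 10 Ugt2a and Ugt2b genes lie at chr5:86889767-87490871, and Sult1b1, Sult1d1 and Sult1e1 follow at chr5:87513339-87591594. All 9 Ugt1a genes lie at chr1:88055388-88220002, where separate first exons join common last exons. The 8 Sult2a genes lie at chr7:13623967-14494230. A 3' library reads the last bases of a transcript, so near-identical ends split or lose counts. Over the last 500 transcript bases, every 90-base window of 8 Ugt1a genes (all but Ugt1a7c) was also in another member's transcript. The same held for Ugt2a1 and Ugt2a2, and for 34.1% of the windows of Sult2a2, 34.5% of Sult2a5 and 9.73% of Sult2a4. Single values of the Ugt1a genes and of these Sult2a genes are therefore uncertain, while each of the 7 Ugt2b genes and the 6 Sult1 genes had 0% of its windows in another gene.

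Start-site sequences of 4 Ugt2b genes are shown because neighbours in this 1 cluster, such as Ugt2b37 and Ugt2b1, gave different patterns below. Each spans 300 bases, the last 50 of them after the RefSeq start (GRCm38.p6), on the minus strand: Ugt2b36 at chr5:87092506-87092805, Ugt2b5 at chr5:87140291-87140590, Ugt2b37 at chr5:87254739-87255038 and Ugt2b1 at chr5:86926454-86926753. Capitals mark AGGTCA, a half-site of nuclear receptors.
Ugt2b36: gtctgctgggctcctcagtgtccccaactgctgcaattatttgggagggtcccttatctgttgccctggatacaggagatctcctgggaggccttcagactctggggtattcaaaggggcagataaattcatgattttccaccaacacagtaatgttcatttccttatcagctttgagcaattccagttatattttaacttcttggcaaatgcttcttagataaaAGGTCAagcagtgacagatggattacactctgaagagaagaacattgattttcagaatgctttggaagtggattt
Ugt2b5: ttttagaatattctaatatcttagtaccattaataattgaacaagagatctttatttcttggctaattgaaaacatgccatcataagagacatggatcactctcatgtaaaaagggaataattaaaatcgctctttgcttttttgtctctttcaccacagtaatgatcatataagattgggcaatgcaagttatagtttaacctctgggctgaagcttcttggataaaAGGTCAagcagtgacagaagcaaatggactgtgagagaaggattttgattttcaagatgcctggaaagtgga
Ugt2b37: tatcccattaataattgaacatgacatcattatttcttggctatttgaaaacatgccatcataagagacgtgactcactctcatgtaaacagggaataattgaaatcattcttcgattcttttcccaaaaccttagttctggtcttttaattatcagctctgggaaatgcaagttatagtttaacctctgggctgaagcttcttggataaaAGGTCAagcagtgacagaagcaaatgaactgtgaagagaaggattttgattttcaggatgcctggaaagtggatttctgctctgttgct
Ugt2b1: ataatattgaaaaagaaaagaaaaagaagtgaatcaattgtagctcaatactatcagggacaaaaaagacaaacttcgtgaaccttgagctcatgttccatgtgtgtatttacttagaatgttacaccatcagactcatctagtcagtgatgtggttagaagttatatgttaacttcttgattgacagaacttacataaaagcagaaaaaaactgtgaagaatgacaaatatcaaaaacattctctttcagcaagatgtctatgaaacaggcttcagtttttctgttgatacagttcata
Ugt2b36, Ugt2b5, Ugt2b37 and Ugt2b38 have a run of 22 bases in common, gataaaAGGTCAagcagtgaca, which starts between 28 and 45 bases before the start and is in 4 of 32851 RefSeq promoters of this length, those 4 alone. Ugt2b5, Ugt2b37 and Ugt2b38 hold it inside a common run of 62 bases. Ugt2b37 matched Ugt2b38 at 91.3% and Ugt2b5 at 82.7% of the 300 bases. Ugt2b1 matched the 6 other Ugt2b sequences at 59.3% to 62.3% and, like Ugt2b34, held no AGGTCA in this window.

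Promoter sequences of 37 members were matched, 40 in all. Motifs were searched on both strands. AGGTCA was in 25% of the members' promoters and in 16.3% of all promoters. The longer CAAAGTCCA, a site of Hnf4a, was in 1 of 40, that of Sult1b1, against 0.475% of all, and GCGTG, the core bound by Ahr and Arnt, in 17.5% against 32.4%. None of these motifs contains another. These matches are a description of the letters.

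A few genes held most of the UMIs of both families in Alb-high cells. Ugt2b36 was the most abundant member in both libraries, at 3.83 UMIs per 10,000 in the DDC library (interval 3.78 to 3.87) and 4.85 in the DDC_cMet library (4.81 to 4.89). Ugt2b5 followed at 3.01 and 4.84, and Ugt2b34 stood at 2.33 and 2.64. These 3 conjugate steroids, bile acids and drugs as members of the Ugt2b group. Ugt2b genes made up 92.0% and 87.3% of all Ugt UMIs. Of the other glucuronosyltransferases, Ugt2b35 stood at 1.64 and 1.11, Ugt2a3 at 0.474 and 1.10, Ugt2b1 at 0.347 and 1.12, and Ugt3a2, of a group that uses sugars other than glucuronic acid, at 0.360 and 0.730. The 9 Ugt1a genes, which include Ugt1a1, the bilirubin-conjugating enzyme, summed to 0.103 and 0.183, with Ugt1a6a the highest in the DDC library at 0.024 and Ugt1a9 in the DDC_cMet library at 0.055. With their common ends, that sum need not count all Ugt1a transcripts.

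Among sulfotransferases, Sult1d1, which acts on amines and phenols, stood at 2.16 and 1.74, and Sult1a1, the main phenol sulfotransferase, at 1.76 and 3.34. Together these made up 89.1% and 74.0% of Sult UMIs. Sult2a8, a bile acid sulfotransferase, was the only Sult2 gene at 0.5 or more, at 0.143 and 1.14. The other 8 Sult2 genes were each at most 0.014. Sult3a1, known as a female-predominant gene of mouse liver, was counted once in each library. In all, 10 members reached 0.5 per 10,000 in at least 1 library, 7 lay from 0.05 to 0.5, 10 from 0.005 to 0.05 and 16 lower, of which Sult1c1, Sult3a2, Ugt2a1 and Ugt2a2 had no UMI in any kept cell. The 5 most abundant members held 78.8% of the members' UMIs in the DDC library and 73.8% in the DDC_cMet library. These are UMI levels, and the 3' counts are not divided by transcript length.

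**Figure D1:**
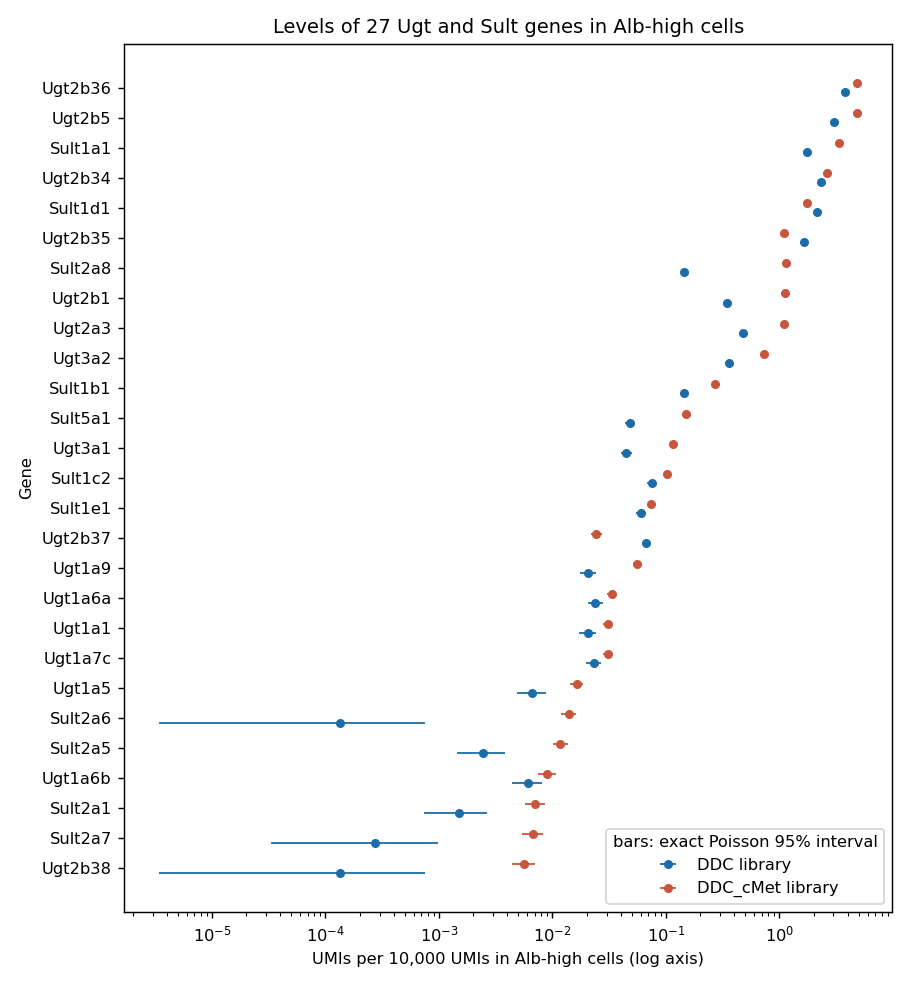
UMIs per 10,000 UMIs (log axis) in Alb-high cells for the 27 members at 0.005 or more in at least 1 library, with exact Poisson 95% intervals. Blue points are the DDC library and red points the DDC_cMet library; Ugt2b36 leads in both at 3.83 and 4.85, and Sult2a8 is the abundant member whose points lie farthest apart.

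Alb-high and Alb-low cells differed in nearly every member. A gene was compared where both cell sets together held at least 50 UMIs, and a call is a difference of at least 2-fold. In the DDC library 20 of 21 members compared were at least 2-fold higher in Alb-high cells, against 16.8% of all genes, and 0 were lower, against 28.6%. In the DDC_cMet library 28 of 29 were higher, against 17.3% of all genes, and 0 lower, against 39.9%. Of these, 13 of 20 and 18 of 28 did not hold 50 UMIs in both cell sets. They reached 50 in the Alb-high cells alone, except Ugt1a5 of the DDC library, with 49 and 1 UMIs. The median log2 difference of the members was 2.91 and 3.58, where all genes had -0.32 and -0.65. Ugt2b36, for instance, stood at 0.370 and 0.311 in Alb-low cells. Alb itself was counted in Alb-low cells at 9.49 and 15.1 per 10,000, so hepatocyte RNA is present there too.

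Among the members set against Ugt2b36, Sult1a1 had a higher ratio in macrophage-, endothelial- and stellate-marker cells than in Alb-high cells of both libraries. Ugt2a3, Ugt2b1 and Sult2a8 were not set against Ugt2b36. Per UMI of Ugt2b36, Alb-high cells held 0.461 Sult1a1 UMIs in the DDC library (interval 0.451 to 0.470) and 0.689 in the DDC_cMet library (0.681 to 0.697). Macrophage-marker cells held 1.28 (1.11 to 1.48) and 2.33 (2.13 to 2.56), above both. The same ratio of Sult1d1 was 0.564 in Alb-high and 0.581 in macrophage-marker cells (DDC), then 0.358 and 0.338 (DDC_cMet). Ugt2b34 (0.608 and 0.595, then 0.543 and 0.580) and Ugt2b35 (0.429 and 0.390, then 0.228 and 0.221) likewise had intervals that overlapped between the cell sets. In T- or NK-marker cells (20 and 15 cells) the Sult1a1 ratio was 0.2 (0.0042 to 1.79) and 0.323 (0.141 to 0.675), from 1 and 10 Sult1a1 UMIs, the latter below the Alb-high ratio. Ugt3a2 was the second member with a higher ratio in macrophage-marker cells, 0.214 against 0.094 in the DDC library and 0.407 against 0.15 in the DDC_cMet library. Alb moved the other way, with 65.1 and 82.7 UMIs per Ugt2b36 UMI in Alb-high and 29.6 and 59.4 in macrophage-marker cells. Alb itself separates these cell sets, so the selection favours that direction for Alb.

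As a level, Sult1a1 stood at 0.472 and 0.828 per 10,000 in the 429 and 1258 macrophage-marker cells, where Ugt2b36 was at 0.368 and 0.355. The 63 and 272 endothelial-marker cells gave 0.715 and 0.675, and the 24 and 91 stellate- or fibroblast-marker cells 0.584 and 1.05. After thinning each cell to 2000 UMIs, 9.56% (6.95 to 12.7) and 14.4% (12.5 to 16.5) of macrophage-marker cells had a Sult1a1 UMI (52.9% and 60.9% unthinned), against 25.7% and 43.7% of Alb-high cells (81.8% and 79.0% unthinned). For Ugt2b36 the thinned shares were 5.36% and 7.95% of macrophage-marker cells, and 52.7% and 62.0% of Alb-high cells. Median depths were 20458 and 13884 UMIs in the macrophage-marker cells and 34992 and 12697 in the Alb-high cells. These marker gates, at least 20 marker UMIs per 10,000, were chosen after the data were seen.

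**Figure D2:**
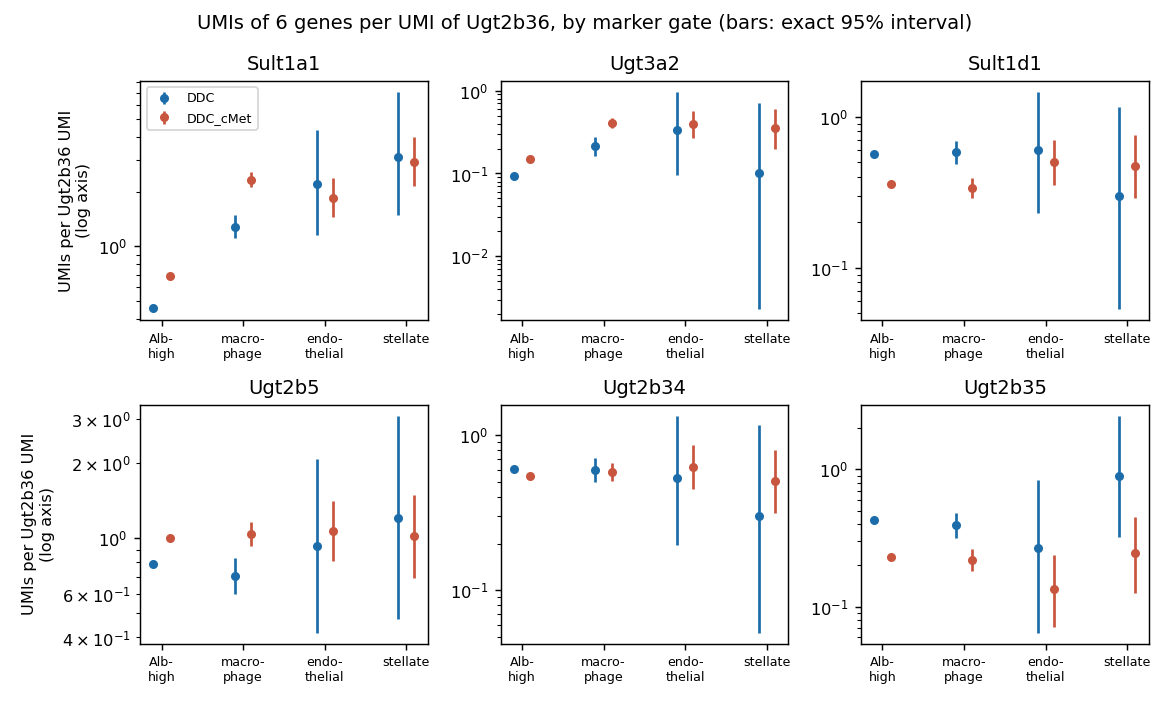
UMIs of 6 members per UMI of Ugt2b36 (log axis) in Alb-high cells and in cells gated on macrophage, endothelial and stellate markers, blue for the DDC and red for the DDC_cMet library, with exact 95% intervals. Sult1a1 lies higher in the 3 gates than in Alb-high cells (0.461 and 0.689), as does Ugt3a2 in the DDC_cMet library. Sult1d1, Ugt2b34 and Ugt2b5 stay near their Alb-high ratio where counts are large.

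The next comparison asks how members differ between the libraries in Alb-high cells. Of 30 members compared, 15 were at least 2-fold higher in the DDC_cMet library, against 8.78% of all genes, and 1 was at least 2-fold lower, against 10.3%. The members' median log2 difference was 0.97, with 26 of 30 above 0, where the median of all genes was -0.23. Of the 15, 8 reached 50 UMIs in the DDC_cMet library alone, so the minimum selects for their direction, and 7 had 50 or more in each library. Sult2a8 differed most among the members at 0.5 or more: 0.143 in the DDC and 1.14 in the DDC_cMet library, a log2 ratio of 2.99 (2.90 to 3.08). Ugt2b1 followed with 1.69 (1.63 to 1.75), Ugt2a3 with 1.22 (1.17 to 1.27) and Ugt3a2 with 1.02 (0.96 to 1.08). Sult1a1, at 0.92, and Ugt2b5, at 0.69, were higher by less than 2-fold, and Ugt2b36 (0.34) by still less. Ugt2b34 was at 0.18 over all Alb-high cells but at -0.60 in those of 5000 to 20000 UMIs and at -0.04 in those with no Plet1 UMI. Sult1d1 at -0.31 and Ugt2b35 at -0.57 were lower. Ugt2b37 was the 1 member at least 2-fold lower, at 0.067 and 0.024 per 10,000, a log2 ratio of -1.46 (-1.66 to -1.26). Like all members below 0.5 that are singled out here, it was named after its values were seen.

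Neighbouring genes differed in opposite directions. Within the Ugt2b cluster, among genes that met the minimum in each library, log2 ratios ran from -1.46 for Ugt2b37 to 1.69 for Ugt2b1. Ugt2b38, at 5.37 (interval 2.85 to 10.7), had 1 UMI in the DDC library and 77 in the other. It met the minimum through the DDC_cMet library alone, so the minimum selects for its direction. The low Sult2a genes had few UMIs in the DDC library and met the minimum through the other: Sult2a6 had 1 and 191 UMIs, Sult2a7 2 and 92, Sult2a1 11 and 97, Sult2a2 4 and 52, and Sult2a5 18 and 162. Among the remaining low members, Sult5a1 stood at 0.048 and 0.149 and Ugt1a9 at 0.021 and 0.055.

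The size of this library difference moved with depth and with Plet1, a gene for a cell surface protein. Alb-high cells had a median of 34992 UMIs in the DDC and 12697 in the DDC_cMet library. Within Alb-high cells of 5000 to 20000 UMIs, 4 of 15 members compared were at least 2-fold higher, and Ugt2b1 had a log2 ratio of 0.23, Ugt3a2 0.06, Ugt2a3 0.56 and Sult2a8 1.10. There Sult1a1 was at 1.34, above its 0.92 over all cells, and Ugt2b35 at -1.30. Among Alb-high cells with no Plet1 UMI, 668 and 5209 cells, 9 of 26 members were at least 2-fold higher, with Sult2a8 at 1.58, Ugt2a3 at 0.80, Ugt2b1 at 0.57 and Ugt3a2 at 0.48. Shares of all genes were not computed in these subsets, so their counts have no background beside them. Plet1 stood at 2.07 per 10,000 in Alb-high cells of the DDC library and 0.348 in the DDC_cMet library, and the summed biliary or progenitor markers at 43.7 and 6.01. Sult1a1 stayed between 0.75 and 1.34 and Ugt2b35 between -1.30 and -0.48 over all 13 other settings. In cells of 2000 to 5000 UMIs Ugt3a2 was at -0.069. The mix of cells and the depth cannot be told apart from the library.

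**Figure D3:**
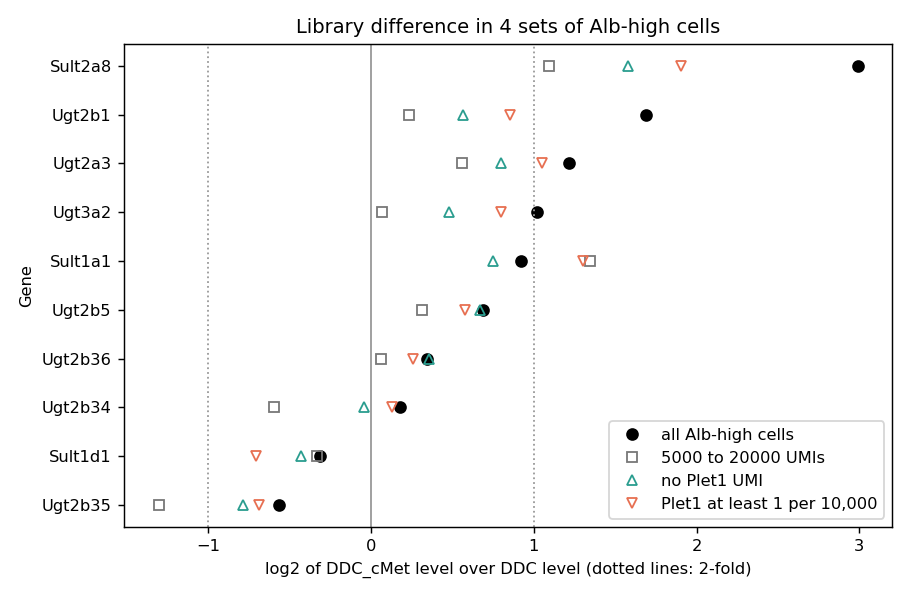
Log2 of the DDC_cMet over the DDC level for the 10 members at 0.5 or more, in all Alb-high cells (filled circles), in those of 5000 to 20000 UMIs (squares), with no Plet1 UMI (upward triangles) and with at least 1 Plet1 UMI per 10,000 (downward triangles). Sult2a8 and Ugt2b1 move from 2.99 and 1.69 to 1.10 and 0.23 in the cells of 5000 to 20000 UMIs, while Sult1a1 stays at 0.75 or more.

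In the DDC library, EGFP-high Alb-high cells (at least 5 EGFP UMIs per 10,000, 74 cells) had less of most members than cells with no EGFP UMI (1331 cells). The EGFP-zero set includes cells of the WT mice, which carry no reporter. Of 20 members compared, 9 were at least 2-fold lower, against 7.17% of all genes, and 1 was at least 2-fold higher, against 12.1%. Of the 9, 6 had 50 UMIs or more in EGFP-zero cells alone, as did the 1 higher member. The members' median log2 difference was -0.94, and that of all genes 0.26. Ugt2b1 stepped down over the 4 EGFP bins, from 0.535 per 10,000 at 0 EGFP to 0.195 under 2, 0.115 from 2 to 5 and 0.037 at 5 or more, a log2 ratio of -3.86 (-4.77 to -3.08). Sult2a8 went from 0.213 to 0.093, 0.035 and 0.011, a log2 ratio of -4.23 (-6.11 to -2.87) that rests on 4 UMIs in the highest bin. Both were lower with each bin.

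Ugt2b5 differed mainly in the highest bin, while Ugt2b36 was highest from 2 to 5 EGFP UMIs and lowest in the highest bin. Ugt2b36 stood at 3.70, 3.92, 4.67 and 2.99 over the bins and Ugt2b5 at 3.07, 3.07, 3.02 and 1.83. Ugt2b34 (log2 -1.45), Ugt2b35 (-1.48) and Ugt2a3 (-1.58) were at least 2-fold lower there, Sult1d1 (-0.90) and Ugt3a2 (-0.98) nearly so. The low members Sult1b1 (-1.54), Ugt1a1 (-2.33, 2 UMIs in the highest bin) and Ugt1a9 (-3.24, 1 UMI) were past 2-fold as well. Sult1a1 was the exception among abundant members: 1.52 in EGFP-zero and 1.85 in EGFP-high cells, a log2 ratio of 0.28 (0.16 to 0.40). Sult5a1 was the 1 member at least 2-fold higher, at 0.044 and 0.117, a log2 ratio of 1.39 (0.86 to 1.89). Sult1e1, the estrogen sulfotransferase, had 313 UMIs in EGFP-zero cells and 0 in EGFP-high cells, 10.3-fold lower when 3 counts over the set stand for 0. Only 7.41% of Alb-high cells of this library had a Sult1e1 UMI. The fold does not cover that unevenness between cells.

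Other values moved with the EGFP bins. Median depth was 24092 UMIs in EGFP-zero and 51698 in EGFP-high cells, and Alb stood at 276 and 124 per 10,000. Summed biliary or progenitor markers were 17.1 and 201, with Spp1 at 15.8 and 191, and summed pericentral markers 9.08 and 1.23. Relative to Alb, which had a log2 ratio of -1.16, Ugt2b36, Ugt2b5, Sult1d1 and Ugt3a2 were lower by less, and Ugt2b34, Ugt2b35, Ugt2a3, Ugt2b1 and Sult2a8 by more. In cells of at least 10000 UMIs Ugt2b1 was at -3.81 and Sult1a1 at 0.28, close to the values over all depths. Over all 11 other settings Ugt2b1 ran from -4.19 to -1.71 and Sult1a1 from 0.07 to 0.70. The part of the pericentral and biliary markers in these differences was not tested.

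**Figure D4:**
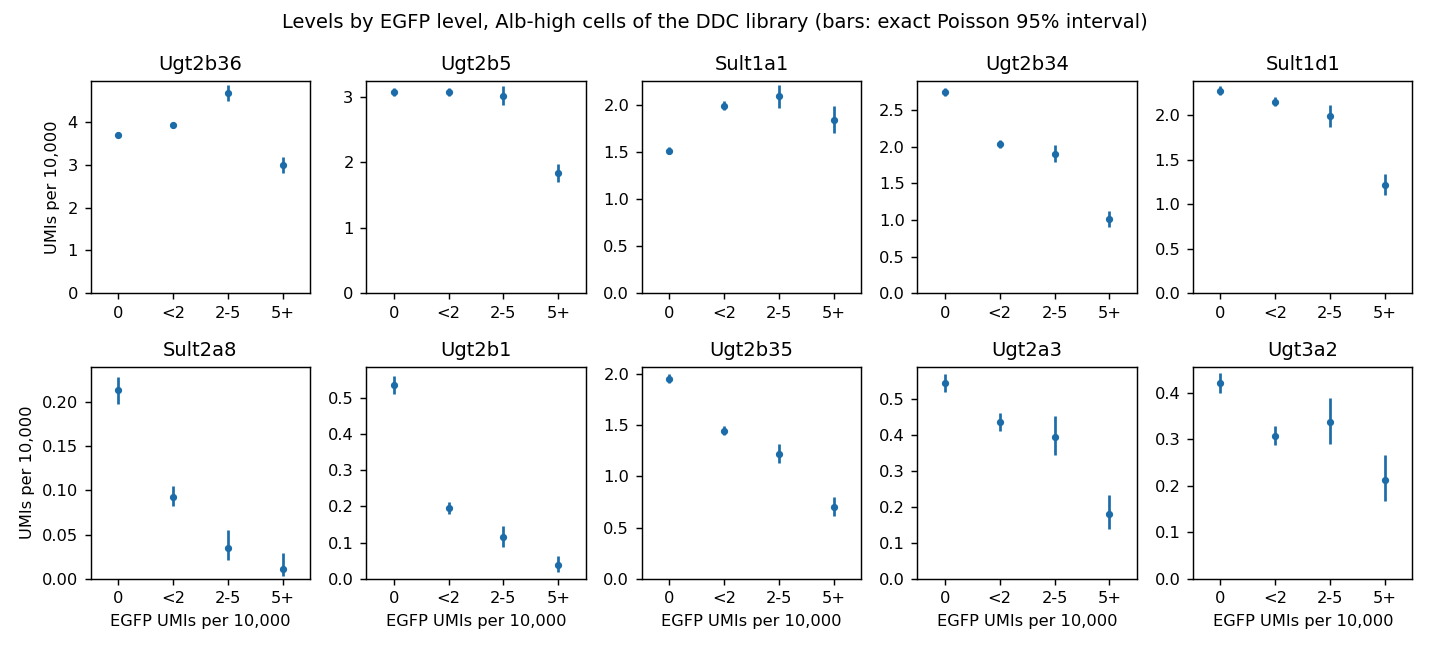
UMIs per 10,000 for the 10 members at 0.5 or more over 4 bins of EGFP UMIs per 10,000 (0, under 2, 2 to 5, 5 or more) in Alb-high cells of the DDC library, with exact Poisson 95% intervals. Ugt2b1 (0.535 to 0.037) and Sult2a8 (0.213 to 0.011) are lower with each bin, and Sult1a1 is lowest where EGFP is 0.

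Zonation was read from an index per cell, the log2 ratio of summed pericentral markers (such as Glul and Cyp2e1) to summed periportal markers (such as Cyp2f2 and Hal), each with 1 per 10,000 added. Alb-high cells were ranked into 5 equal zone bins in each library, and no member is in the index. In the DDC library 7 of 20 members compared were at least 2-fold higher in the most pericentral bin than in the most periportal bin (431 and 432 cells), against 4.29% of all genes, and 2 were lower, against 5.47%. In the DDC_cMet library (1259 and 1260 cells) 3 of 24 were higher, against 8.69%, and 1 lower, against 1.42%. Of the higher members, 3 of 7 and 2 of 3 did not hold 50 UMIs in both bins. Ugt1a1 (48 pericentral and 17 periportal UMIs) and Ugt1a9 (43 and 27) of the DDC library reached 50 in neither bin. The others reached 50 in the pericentral bin alone, and both lower members of the DDC library in the periportal bin alone. Median log2 differences of the members were 0.63 and 0.05, and of all genes -0.11 and 0.15.

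Ugt2b34 and Sult1d1 were graded the same way in both libraries. Ugt2b34 went over the zone bins from 1.88 at the periportal end through 1.98, 2.22 and 2.62 to 3.24 in the DDC library, and from 2.33 through 2.50, 2.63 and 2.70 to 3.02 in the DDC_cMet library. Its log2 ratio was 0.79 (0.72 to 0.86) and 0.38 (0.33 to 0.42). Sult1d1 was higher with each bin in both, with ratios of 0.29 and 0.45. Ugt2b35 was higher pericentrally in both, at 0.89 and 0.40. Ugt3a2 was at 0.64 and 0.15, the latter at -0.07 after thinning to 2000 UMIs. Sult1e1 was at least 2-fold higher pericentrally in both libraries, with ratios of 1.91 (1.41 to 2.43) and 2.10 (1.66 to 2.56).

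On the periportal side, Sult1a1 stood at 2.16 in the most periportal and 1.45 in the most pericentral bin of the DDC library, and at 3.54 and 2.73 in the other, ratios of -0.57 and -0.37. Ugt2b36 (-0.37 and -0.26) and Ugt2b5 (-0.13 and -0.34) leaned the same way by less. Sult5a1 was periportal in both, 0.075 and 0.032 (DDC), then 0.412 and 0.058 (DDC_cMet), ratios of -1.22 (-1.78 to -0.69) and -2.82 (-3.07 to -2.58). Ugt2b37 was the steepest of the DDC library, at -2.48 (-3.15 to -1.87) and -0.90 (-1.47 to -0.35), the reverse of Ugt2b34 in the same cluster. With Cyp2e1 and Cyp2f2 alone as the index, Sult1a1 of the DDC_cMet library was at 0.03.

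Some members pointed opposite ways in the libraries, and Ugt2b1 was the clearest. Its 5 values were 0.281, 0.147, 0.241, 0.389 and 0.804 (DDC), then 1.66, 0.978, 0.837, 0.935 and 1.23 (DDC_cMet), high at both ends in the latter. The log2 ratio was 1.52 (1.36 to 1.68) and -0.43 (-0.50 to -0.37). In the 31 Alb-high cells of the DDC library with at least 5 UMIs per 10,000 of Glul, a marker of the innermost pericentral hepatocytes, Ugt2b1 stood at 3.43. The 54 such cells of the DDC_cMet library gave 1.64, but they also held summed macrophage markers at 30.9 and endothelial markers at 29.6 per 10,000, against 5.81 and 1.2 in all Alb-high cells there, so they are not called by that name. Sult2a8 had ratios of 1.04 (0.81 to 1.27) and -0.18 (-0.24 to -0.11), Ugt2a3 of 0.63 and -0.48, and Ugt1a9 of 1.02 and -0.33. The other members past 2-fold in the DDC library were Sult1b1 (1.03), Ugt3a1 (1.02) and Ugt1a1 (1.85), and these had 0.22, 0.23 and 0.06 in the DDC_cMet library. Sult2a5 (6 periportal and 70 pericentral UMIs) and Sult2a6 (3 and 103) of the DDC_cMet library met the minimum through the pericentral bin alone, so their ratios of 3.34 and 4.90 are given as a description.

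In the DDC library the index moved with the injury markers. From the periportal to the pericentral bin the summed biliary or progenitor markers went from 81.3 to 4.04 per 10,000, EGFP from 1.51 to 0.125 and Plet1 from 2.69 to 0.836, while in the DDC_cMet library the biliary or progenitor sum went from 7.36 to 1.39. With zone bins made among Alb-high cells with no Plet1 UMI (134 and 133 cells), 0 of 12 members of the DDC library were at least 2-fold higher pericentrally and 1 was lower. The share of all genes was not computed in this subset. Of the 7 members past 2-fold over all Alb-high cells, Sult1e1, Ugt1a1, Ugt1a9 and Ugt3a1 had fewer than 50 UMIs in this subset and were not compared, with ratios of 0.74 (-0.24 to 1.79), 1.47 (-0.04 to 3.28), 1.30 (-0.11 to 2.93) and 1.55 (0.54 to 2.67). Ugt2b1 then stood at 1.11 and 1.46, a ratio of 0.39 (0.19 to 0.60), Sult2a8 at 0.11 (-0.15 to 0.38) and Ugt2a3 at -0.08 (-0.34 to 0.18). Ugt2b34 kept 0.83 (0.68 to 0.98), Ugt2b35 0.88 and Sult1a1 -0.63. Of the DDC_cMet library, the Plet1-zero cells gave Ugt2b1 at -0.50, Ugt2a3 at -0.52 and Sult2a8 at -0.18.

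**Figure D5:**
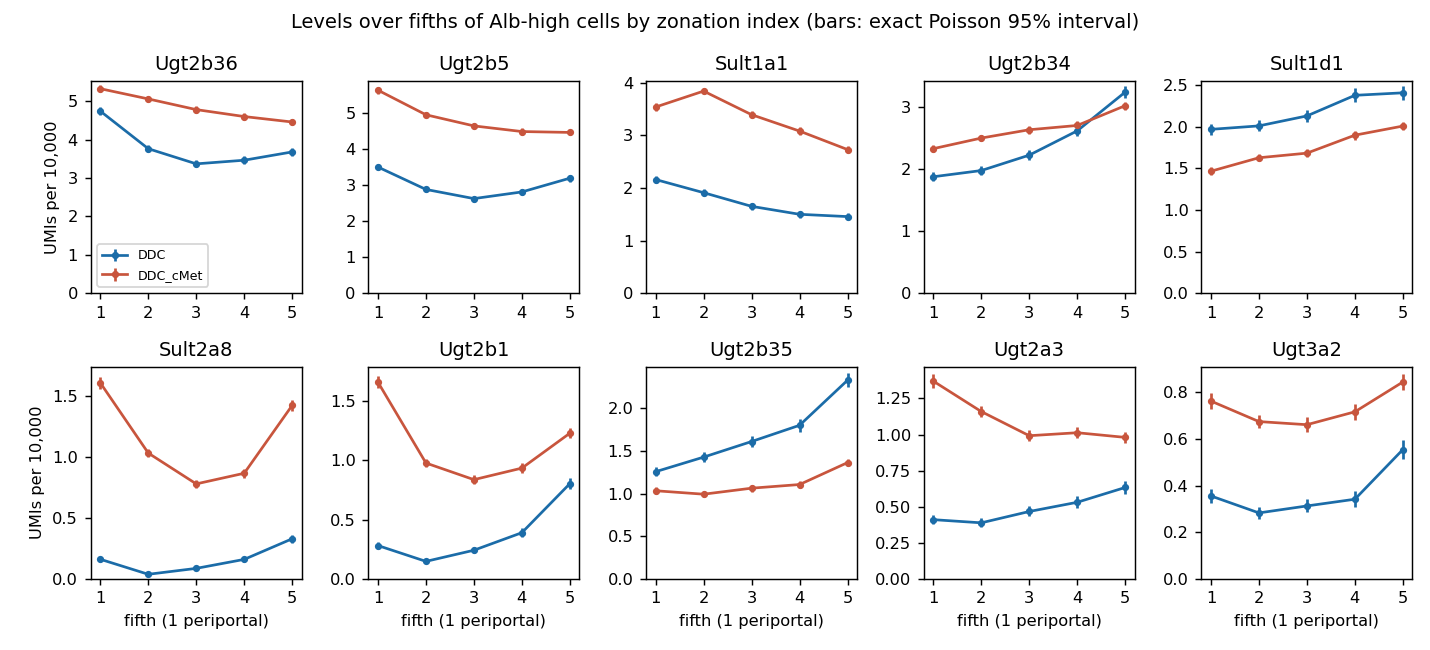
UMIs per 10,000 for the 10 members at 0.5 or more over 5 equal bins of Alb-high cells, from 1 (most periportal) to 5 (most pericentral), blue for the DDC and red for the DDC_cMet library, with exact Poisson 95% intervals. Ugt2b34 and Sult1d1 are higher with each bin in both libraries, and Ugt2b1 and Sult2a8 of the DDC_cMet library are high at both ends.

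Alb-high cells with at least 1 Plet1 UMI per 10,000 were set against those with none, a comparison added after the data were seen. In the DDC library (1111 and 668 cells) 4 of 20 members were at least 2-fold lower in Plet1-positive cells, against 3.6% of all genes, and 2 were higher, against 6.86%. In the DDC_cMet library (562 and 5209 cells) 10 of 28 were lower, against 7.29%, and 1 higher, against 9.89%. In the latter 7 of the 10 reached 50 UMIs in Plet1-zero cells alone. Sult2a8 was lower in both, 0.056 against 0.470 and 0.210 against 1.40 per 10,000, log2 ratios of -3.06 (-3.28 to -2.85) and -2.74 (-2.91 to -2.57). Ugt2b1 was lower in both as well, at -2.46 (-2.60 to -2.33) and -2.18 (-2.33 to -2.03). Sult1b1 (-1.02 and -1.39) and Sult1e1 (-2.02 and -1.22) were the other members at least 2-fold lower in both.

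Of the abundant members, Ugt2b36 and Ugt2b5 differed least with Plet1. Ugt2b36 had log2 ratios of 0.02 (-0.03 to 0.06) and -0.08 (-0.12 to -0.04), Ugt2b5 of -0.03 and -0.12, Ugt2b34 of -0.35 and -0.18, and Sult1d1 of -0.32 and -0.60 (-0.67 to -0.52). Ugt2b37 was higher in Plet1-positive cells, at 1.81 (1.30 to 2.36) and 0.79 (0.32 to 1.24), as was Sult1c2, at 1.06 and 0.89. Sult1a1 was lower in the DDC library, at -0.16 (-0.23 to -0.10), and higher in the DDC_cMet library, at 0.39 (0.35 to 0.43). In the latter it went from 3.18 with no Plet1 UMI to 4.16, and in the 10 cells with at least 10 Plet1 UMIs per 10,000 to 7.06. Plet1-positive cells were deeper, with medians of 40406 against 10826 UMIs in the DDC library and 22988.5 against 8339 in the other. Their biliary or progenitor marker sums were 64.4 against 10.2 and 26.2 against 3.23. In cells of at least 10000 UMIs Ugt2b1 was at -2.54 and -2.42, and thinning each cell to 2000 UMIs gave -2.19 and -1.19. The part of the biliary or progenitor markers in these values was not tested.

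Cells with high male-biased markers (such as Mup20 and Cyp4a12a, summed to 50 or more per 10,000) were set beside cells under 20 in the DDC_cMet library, 2160 and 2139 cells. Sult2a8 stood at 1.90 and 0.211, Ugt2b1 at 1.64 and 0.566, Sult5a1 at 0.310 and 0.016, and Ugt2b36 at 5.38 and 4.27. The reverse held for Sult2a5 (0.002 and 0.024) and Sult2a6 (0.002 and 0.028). The same order held in the DDC library (643 and 764 cells) for Sult2a8, at 0.130 and 0.046, while Ugt2b1 stood at 0.287 and 0.257. Male-biased markers were themselves periportal, with sums of 88.0 in the first and 28.7 in the last bin of the DDC_cMet library, so these values are not independent of the zones. Cut-offs were chosen after the data were seen.

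Cell to cell, rank correlations between members were low, in counts where counting error itself pulls them towards 0. Over cells of at least 20000 UMIs thinned to that depth (1438 and 2762 cells), the 36 pairs of 9 members had a median Spearman rho of 0.12 and 0.10. Mean counts per thinned cell ran from 0.69 for Ugt2b1 in the DDC library to 9.43 for Ugt2b36 in the DDC_cMet library. How closely the members go together apart from counting error was not tested. Cells of 1 library share its preparation, so these are descriptions. Ugt2b36 and Ugt2b5 gave 0.45 and 0.42, and Ugt2b34 and Ugt2b35 0.47 and 0.28. Ugt2b1 went with the periportal marker Cyp2f2 at 0.19 in the DDC and 0.49 in the DDC_cMet library. With the pericentral marker Cyp2e1 it was at 0.27 and 0.05, and with Spp1 at -0.35 and -0.29. With Spp1, Ugt2b34 (-0.38) and Ugt2b35 (-0.34) of the DDC library were near Ugt2b1.

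The 34 pathway genes present were followed in the same comparisons. Between the libraries 3 were at least 2-fold higher and 1 lower in the DDC_cMet library, with a median log2 ratio of -0.15. Over all genes 8.78% were higher and 10.3% lower, so the count of higher genes is near the background. The 3 were Abcc6, a transporter (0.063 and 0.225 per 10,000, log2 1.84), Ppara, a fatty acid receptor (0.220 and 0.723, 1.72), and Onecut1, a liver transcription factor (0.417 and 0.890, 1.09). Ahr, the receptor that induces conjugating enzymes, was lower, at 0.555 and 0.264 (-1.07). The receptors Nr1i3 (0.382 and 0.410) and Nr1i2 (0.252 and 0.286) and the exporter Abcc2 (2.36 and 2.34) were near each other in the libraries.

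EGFP-high cells had 6 of 34 pathway genes at least 2-fold lower and 3 higher, against 7.17% and 12.1% of all genes. Nr1i3, the constitutive androstane receptor, which regulates many members, stood at 0.483 in EGFP-zero and 0.028 in EGFP-high cells, a log2 ratio of -4.09 (-5.15 to -3.20). Of 5 UDP-glucuronate supply genes 2 were at least 2-fold lower and 0 higher: Ugdh at 4.32 and 1.14 (-1.92) and the UDP-glucuronate carrier Slc35d1 at 1.79 and 0.682 (-1.39). Of 11 genes of PAPS supply and turnover 2 were lower and 2 higher. Lower were Papss2 at 0.588 and 0.202 (-1.54) and the sulfate transporter Slc26a1 at 0.652 and 0.242 (-1.43). Higher were Papss1, the other PAPS synthase, at 0.177 and 0.378 (1.09), and the sulfate transporter Slc26a2 (1.06). Onecut1 was higher as well, at 0.317 and 0.810 (1.35). Slc26a2 and the lower Abcc4 (-1.76) were below 0.2 per 10,000 in both cell sets.

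Across the zones, 3 of 34 pathway genes were at least 2-fold higher pericentrally in each library, with 1 lower in the DDC and 0 in the DDC_cMet library. The shares of all genes higher were 4.29% and 8.69%, so the count of the DDC_cMet library is near the background. The shares of all genes lower were 5.47% and 1.42%. Nr1i3 was higher in both, at 2.21 and 1.60, and Abcc4, at 2.47 and 3.43. Ugdh was at 1.52 in the DDC library, and Ahr at 1.29 in the DDC_cMet library. Onecut1 was the lower gene of the DDC library, at -1.44. Nr1i3 was also lower in Plet1-positive cells, at -1.36 and -1.66. There 1 of 34 pathway genes was at least 2-fold lower in each library, against 3.6% and 7.29% of all genes. At least 2-fold higher were 0 of 34 and 1 of 34, against 6.86% and 9.89%.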

How the data were processed

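Hepatocyte-labelled liver cells of 2 pooled libraries were profiled by 10x 3' sequencing. The authors deposited counts, whole-number UMIs per gene and barcode with no normalization. Their gene and barcode lists, also deposited by the authors, are names and carry another kind of entry, no unit (other). Cell Ranger 5.0.1 stands in the matrix headers, while version 6.0.1 of it, with Seurat 4.0.1 and the mm10 build, is listed per the submitters' processing notes. Which of these made the matrices, and how barcodes were chosen, was not given in the sources used here.

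UMIs were summed over sets of cells and scaled to 10,000 UMIs (Python 3.11.15, scipy 1.17.1). Levels have exact Poisson intervals and ratios exact binomial ones at 95%, and a sum of 0 was set at 3 counts. Since PCR duplicates are removed by UMI, intervals cover counting error only, not mice. The calling code was tested on simulated data. Members and lists were chosen with earlier results of these data known, and cut-offs for marker gates, Plet1 and male markers after seeing the data. Members with at least 0.5 per 10,000 in either set are named; pathway genes are named where at least 2-fold apart with at least 0.2. Alternatives were other scalings, thinning to 2000 UMIs, cell filters, Alb and UMI minimums, depth strata, other zone indices and Plet1 subsets. Sts, of the pathway list, was not analysed here, and 1 of 4 promoter motifs searched is not reported here.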

Additional observations from a re-analysis of the deposited data

Results flagged for a closer look

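Each library is 1 sample, so none of the following differences between the libraries was tested. Between the most pericentral and the most periportal zone bin of Alb-high cells, 4 members had opposite signs in the libraries, with counting intervals that left 0 out. Ugt2b1, a glucuronosyltransferase, had a log2 ratio of 1.52 in the DDC library and -0.43 in the DDC_cMet library. For the bile acid sulfotransferase Sult2a8 the ratios were 1.04 and -0.18, for Ugt2a3 0.63 and -0.48, and for Ugt1a9 1.02 and -0.33. The DDC value of Ugt1a9 rests on 43 and 27 UMIs, and its 3' end is common to other Ugt1a genes. Among Plet1-zero cells of the DDC library Ugt2b1 was at 0.39 (0.19 to 0.60) and Sult2a8 at 0.11 (-0.15 to 0.38). Ugt2a3 was there at -0.08 (-0.34 to 0.18) and Ugt1a9 at 1.30 (-0.11 to 2.93). Between Plet1-positive and Plet1-zero Alb-high cells, Sult1a1 had a log2 ratio of -0.16 in the DDC library and 0.39 in the DDC_cMet library.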

How the results depend on the processing

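Counts of members at least 2-fold apart moved by over 1.5 times under these settings, as the number of the members compared. Shares of all genes were not computed under these settings. Thinning to 2000 UMIs per cell left fewer members with 50 UMIs. It gave 7 of 17 higher and 0 lower between the libraries, 0 of 10 higher with EGFP, and 1 of 10 higher and 0 lower pericentrally in the DDC library. In the DDC_cMet library 0 of 14 were then higher pericentrally. For Alb-high cells it gave 11 of 11 and 16 of 16 higher, and for Plet1 0 higher and 2 lower of 10 in the DDC library and 0 higher and 5 lower of 16 in the DDC_cMet library.

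For the remaining settings the cause was not tested. A minimum of 10 UMIs gave 2 of 23 higher with EGFP, and in the DDC_cMet library 6 of 30 higher pericentrally, 1 of 31 lower in Alb-high cells and 2 of 31 higher with Plet1. A minimum of 1 UMI gave 2 of 23, 6 of 33 (with 2 lower), 1 of 31 and 2 of 32. Stricter cell filters gave 2 of 23 lower pericentrally in the DDC_cMet library, and Alb-high at 30 gave 2 of 25. Alb-high at 100 gave 2 of 20 higher with EGFP and 1 of 20 with Plet1 in the DDC library, as did under 10 other-cell markers for Plet1 (1 of 20). Between the libraries, cells of 2000 to 5000 UMIs gave 7 higher and 0 lower of 16, and cells of 5000 to 20000 UMIs 4 of 15. An index of Cyp2e1 and Cyp2f2 alone gave 1 of 20 higher pericentrally in the DDC library and 5 of 25 lower in the DDC_cMet library, and an index without both 3 of 20 higher in the DDC library. Alb-low under 10 gave 14 of 17 higher in the DDC_cMet library.

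Added after seeing the data, Plet1-zero cells gave 9 higher and 0 lower of 26 between the libraries, and Plet1-positive cells 5 higher and 2 lower of 20. Zone bins among Plet1-zero cells gave 0 higher and 1 lower of 12 in the DDC library and 2 of 23 lower in the DDC_cMet library. Ugt3a2 reversed between the libraries in cells of 2000 to 5000 UMIs, at -0.069, and Ugt2b34 in cells of 5000 to 20000 UMIs, at -0.60, and in Plet1-zero cells, at -0.04. Of the named members, 8 of 10 kept their sign between the libraries under every setting run, 8 of 8 with EGFP, and 8 of 9 and 8 of 10 across the zones. With Plet1, 7 of 9 did in the DDC library, where Ugt2b36 ran from -0.12 to 0.05 and Ugt2b5 from -0.21 to 0.01, and 10 of 10 in the DDC_cMet library. Across the zones Ugt2a3 of the DDC library was at -0.08 among Plet1-zero cells, and in the DDC_cMet library Ugt3a2 was at -0.07 after thinning and Sult1a1 at 0.03 with Cyp2e1 and Cyp2f2 alone. No paired analysis was possible because each group is 1 library.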
